A study of Homo sapiens with 6 samples.

Results

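The mesenchymal transition genes examined here were 10 genes chosen by name: the transcription factors SNAI1, SNAI2, TWIST1, TWIST2, ZEB1, ZEB2 and PRRX1, and the markers VIM, CDH2 and FN1. All 10 were found by gene symbol in the authors' comparison and by Entrez gene ID in the library tables, among 27257 genes in all. They were followed in U87MG cells, a glioblastoma line, which had received either a control lentivirus (3 libraries, U87MG-control) or a lentivirus for LMO2, a LIM-domain adaptor protein (3 libraries, U87MG-LMO2). Both infections lasted 24 h, no other genotype or treatment separated the groups, and both groups were grown in serum-containing DMEM before total RNA was sequenced. The study asked which transcripts change when LMO2 is overexpressed. The model is therefore a single serum-grown line with LMO2 expressed from a virus at 1 time point, and the labels do not say whether the replicates were separate infections, so p-values measure the spread between these libraries, which may be technical.

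Epithelial-mesenchymal transition (EMT) is the program in which epithelial cells loosen their junctions and take up a motile, matrix-producing state. SNAI and ZEB proteins are zinc-finger repressors that bind E-box sequences in genes such as CDH1, TWIST proteins are basic helix-loop-helix (bHLH) factors that bind other E-boxes together with E-proteins, and PRRX1 is a homeobox factor of mesenchyme. Gliomas are not epithelial, but the same factors have been tied to invasion and to the mesenchymal class of glioblastoma, in which vimentin, N-cadherin and fibronectin mark the state.

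Total expected counts, which are estimated reads per gene, lay between 11428432 and 13537284 in the control libraries and between 14630627 and 17892955 in U87MG-LMO2. Every U87MG-LMO2 library was thus deeper than every control. LMO2 (4005; chr11:33858576-33892289, GRCh38, minus strand), the check of the labels, had 5 to 11 counts in the controls and 4503 to 14570 counts in U87MG-LMO2, and the library with the most was replicate 3. Among 7 glial markers with usable values (the values of GFAP were damaged in the tables), SOX2, SOX10, S100B, AQP4 and PTPRZ1 had at most 6 counts in every library, whereas the neural progenitor marker NES had 552 to 792 counts, so most of the defining glial markers were at or near 0 in both groups. The summed glial level was 42.9 to 49.9 normalised read counts scaled to library size (CPM) in the controls and 40.5 to 48.8 CPM in U87MG-LMO2. The summed level of 7 blood and endothelial markers was 401 to 534 CPM against 303 to 578 CPM, nearly all of it CD68, and the endothelial cadherin CDH5 had at most 1 count. The 7 epithelial and kidney markers summed to 42.3 to 47.3 CPM in the controls and 50.6 to 55.4 CPM in U87MG-LMO2, with EPCAM at most 6 counts and PAX2 at most 1 count. Most of this sum was the renal factor PAX8, with a mean of 36.4 CPM against 45.6 CPM (log2 fold change 0.32, edgeR adjusted p 0.103), and the keratin gene KRT8 had 4.27 against 3.38 CPM. Within that list LHX1, a kidney developmental factor, passed the test for lower expression, with a log2 fold change of -1.42 at an edgeR adjusted p of 0.0216.

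The 10 genes spanned a wide range of length-scaled levels (FPKM, fragments scaled to gene length and library size). In U87MG-control, VIM was highest with 5166 ± 44.4 FPKM (SD, n = 3), followed by FN1 with 373 ± 62.8 FPKM (SD, n = 3). SNAI2 was the most abundant of the transcription factors with 80.3 ± 6.0 FPKM (SD, n = 3). CDH2 stood at 21.2 ± 0.407 FPKM (SD, n = 3), TWIST1 at 17.1 ± 1.05 FPKM (SD, n = 3) and ZEB1 at 14.2 ± 0.910 FPKM (SD, n = 3). PRRX1 and ZEB2 followed with 10.0 ± 1.76 and 8.36 ± 1.24 FPKM (SD, n = 3), and they were the only neighbours in this order whose control libraries overlapped. TWIST2 and SNAI1 lay far below the others with 0.770 ± 0.175 and 0.0867 ± 0.0850 FPKM (SD, n = 3). In the control cells SNAI2, TWIST1 and ZEB1 were thus the most abundant of the 7 transcription factors, and SNAI1 was near the limit of detection.

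In U87MG-LMO2 the order held except at 1 position. TWIST1, at 27.2 ± 2.77 FPKM (SD, n = 3), stood beside CDH2 at 27.1 ± 4.59 FPKM (SD, n = 3), and the libraries of the 2 genes overlapped. VIM (5366 ± 256 FPKM), FN1 (718 ± 314 FPKM) and SNAI2 (87.4 ± 6.41 FPKM) kept the upper ranks, and ZEB1 (11.5 ± 0.316 FPKM), PRRX1 (9.72 ± 1.01 FPKM) and ZEB2 (6.56 ± 0.392 FPKM) the middle ones (all SD, n = 3). TWIST2 reached 1.64 ± 0.10 FPKM (SD, n = 3), and SNAI1 0.260 ± 0.0600 FPKM (SD, n = 3).

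**Figure D1:**
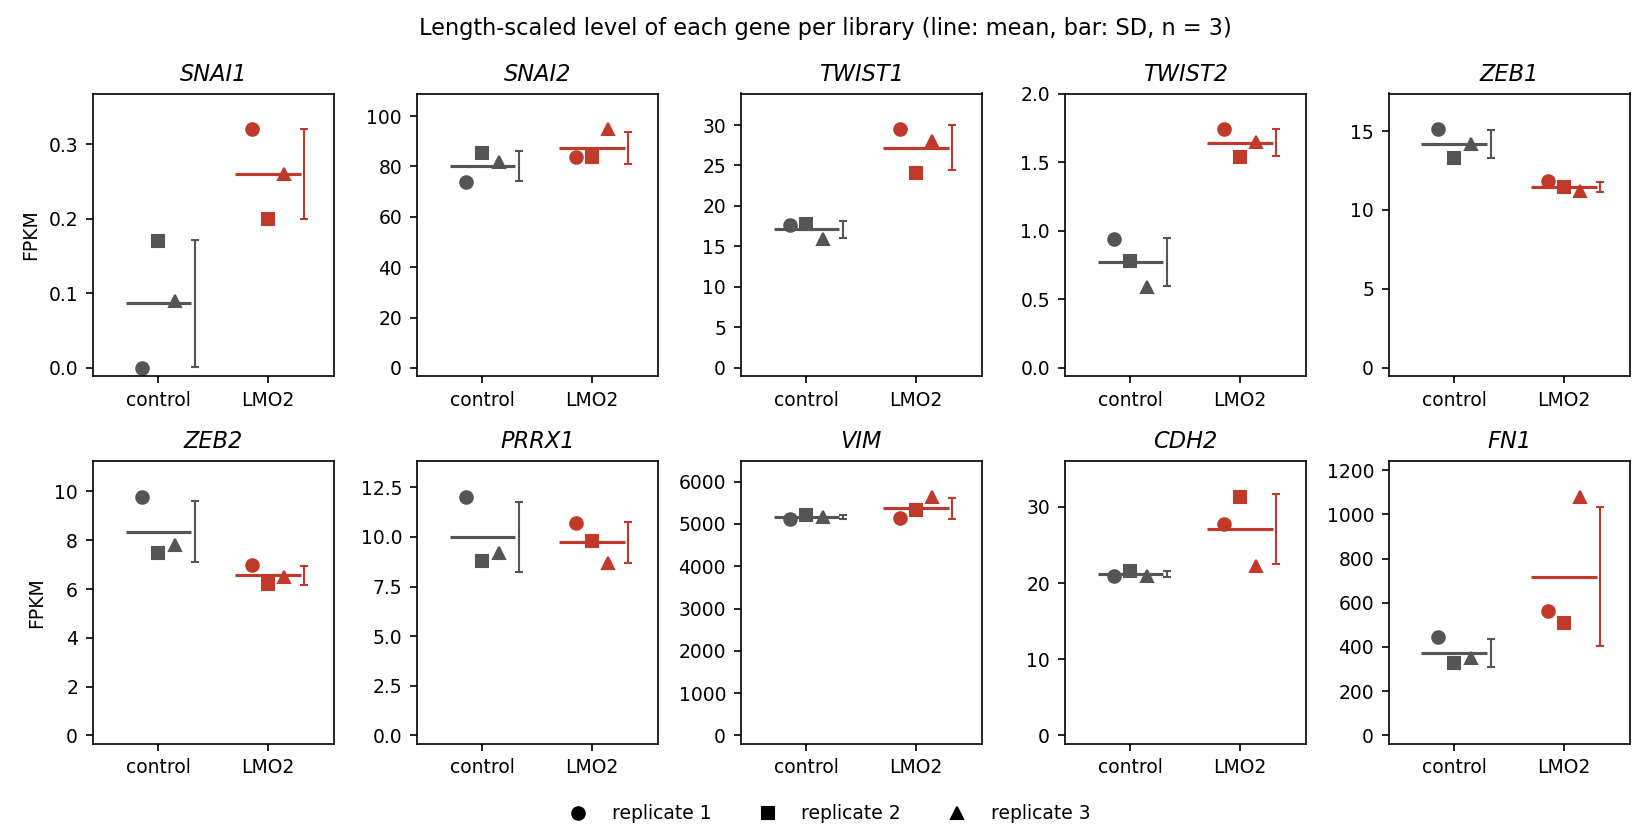
FPKM of each of the 10 genes (y axis, own scale per gene) in the 3 U87MG-control and 3 U87MG-LMO2 libraries, with replicate numbers as symbols, means as lines and SD as bars. TWIST1, TWIST2, CDH2, FN1 and SNAI1, the last near the floor, were higher in every U87MG-LMO2 library than in every control. ZEB1 and ZEB2 were lower in every one, and FN1 was set apart by the 1079 FPKM of U87MG-LMO2 replicate 3.

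Of the 10 genes, 9 passed the filter on low counts and were tested with edgeR. TWIST1 and TWIST2 rose in U87MG-LMO2, and 0 of the 9 fell by edgeR, by DESeq2 or by limma at an adjusted p under 0.05. Across all 16092 tested genes, 4.72% were called higher and 2.75% were called lower. At an unadjusted p under 0.05, 4 genes were higher (TWIST1, TWIST2, CDH2 and FN1) and 2 were lower (ZEB1 and ZEB2). The same 4 and 2 genes had CPM values that did not overlap between the groups, against 17.5% of all tested genes that were higher without overlap and 16.6% that were lower. The median log2 fold change was 0.17 over the 9 genes and -0.01 over all tested genes. With 9 genes these counts are small. The RNA came from whole cultures, in which fewer cells of a type and less RNA per cell cannot be told apart.

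**Figure D2:**
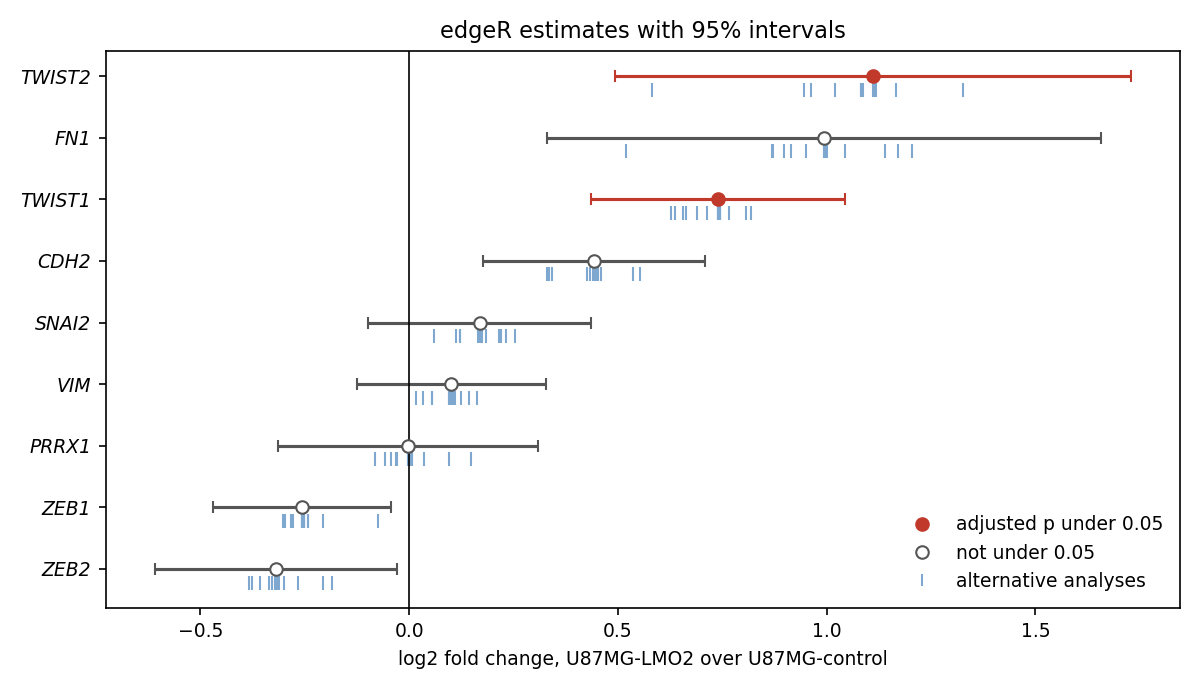
edgeR log2 fold changes (x axis, U87MG-LMO2 over U87MG-control) with 95% intervals for the 9 tested genes, filled where the adjusted p was under 0.05, with ticks below for the 15 alternative analyses. TWIST1 and TWIST2 are filled, at 0.74 and 1.11, while the ticks of PRRX1 lie on both sides of 0.

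TWIST1 (7291; chr7:19020991-19117672, GRCh38, minus strand) encodes the bHLH factor that drives mesoderm formation and cell motility. Its CPM was 20.1, 18.9 and 16.1 in U87MG-control and 32.1, 27.1 and 32.8 in U87MG-LMO2. All 3 U87MG-LMO2 libraries lay above all 3 controls. This was a log2 fold change of 0.74 ± 0.13 (SE), a 1.67-fold rise (95% interval 1.35 to 2.06), with an edgeR adjusted p of 0.0188. The counts behind these values were 214 to 260 per control library and 400 to 547 per U87MG-LMO2 library.

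TWIST2 (117581; chr2:238848032-238910543, GRCh38, plus strand), its close relative in dermal and mesenchymal cells, was much scarcer. It had 15, 13 and 10 counts in U87MG-control and 37, 29 and 37 counts in U87MG-LMO2. In CPM these were 1.30, 0.945 and 0.753 against 2.25, 1.97 and 2.22, again without overlap. Its fold change on the log2 scale was 1.11 ± 0.27 (SE) at an edgeR adjusted p of 0.0444, and its 95% interval on the linear scale ran from 1.41-fold to 3.31-fold. TWIST2 was near the threshold: the edgeR adjusted p was 0.0874 with the replicate number as a block and 0.0799 after a correction for transcript GC content that was chosen after seeing the data, and DESeq2 gave 0.0872. The log2 fold change in these fits was 1.12, 0.96 and 1.11.

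Both TWIST calls were lost when certain single libraries were removed, and calls over all tested genes changed as well. The 760 genes called higher became 102 to 123 without a control library. They became 177, 579 and 1306 without U87MG-LMO2 replicates 1, 2 and 3. Whether the TWIST calls were lost through the removed library itself or through fitting fewer libraries was not tested. TWIST1 had an edgeR adjusted p of 0.0595, 0.0773 and 0.0932 without U87MG-control replicates 1, 2 and 3, and of 0.0801 without U87MG-LMO2 replicate 1. It stayed called without U87MG-LMO2 replicate 2 (edgeR adjusted p 0.0211) and without replicate 3 (0.00804). Its log2 fold change moved only between 0.66 and 0.82 in these fits. For TWIST2 the edgeR adjusted p rose to 0.0794, 0.148 and 0.176 without the controls in turn and to 0.137 and 0.0668 without U87MG-LMO2 replicates 1 and 2, and it was 0.0467 without replicate 3. Its log2 fold change lay between 0.95 and 1.33 in these fits.

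**Figure D3:**
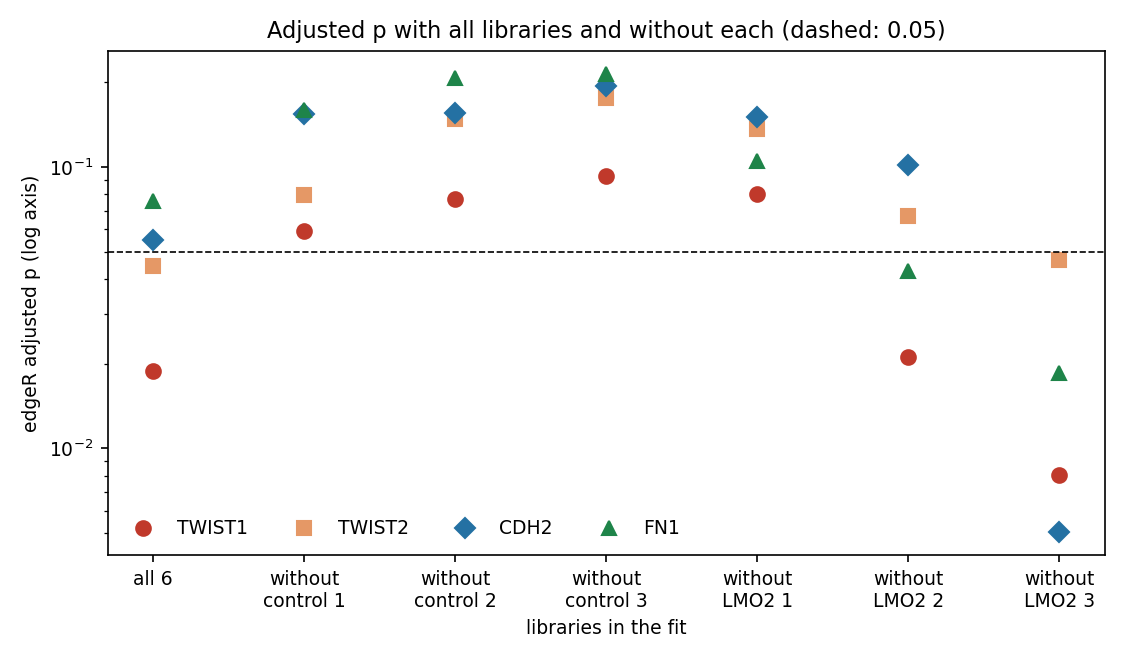
edgeR adjusted p (y axis, log scale) of TWIST1, TWIST2, CDH2 and FN1 with all 6 libraries and without each in turn (x axis), with the 0.05 threshold dashed. Without U87MG-LMO2 replicate 3 all 4 genes lie under the line, and without each control library in turn none does.

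CDH2 and FN1, the surface and matrix markers of the set, had raised values that did not pass the adjusted test. CDH2 (1000; chr18:27950966-28177446, GRCh38, minus strand) encodes N-cadherin, the adhesion protein that replaces E-cadherin in EMT. Its CPM was 66.8, 67.3 and 64.6 in U87MG-control and 89.4, 103 and 77.9 in U87MG-LMO2. The controls were tightly grouped and all 3 U87MG-LMO2 libraries lay above them. Its fold change on the log2 scale was 0.44 ± 0.12 (SE) at an edgeR adjusted p of 0.0549. DESeq2 gave an adjusted p of 0.0235, and edgeR after the GC correction gave 0.0154. On genes with at least 10 counts in every library edgeR gave 0.0485, and without U87MG-LMO2 replicate 3 it gave 0.00503. These were the 4 of 15 alternatives that called CDH2. The other 11 did not, among them edgeR with the replicate block at 0.0955 and limma on log2(FPKM + 1) at 0.166.

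FN1 (2335; chr2:215360440-215436172, GRCh38, minus strand) encodes fibronectin. It had 3439.7, 2529 and 2691 CPM in U87MG-control and 4317, 3954 and 8975 CPM in U87MG-LMO2. The groups did not overlap, but U87MG-LMO2 replicate 3 held over 2 times the level of the other 2 libraries of its group. Its fold change on the log2 scale was 0.99 ± 0.29 (SE) at an edgeR adjusted p of 0.0755. Without U87MG-LMO2 replicate 3 the log2 fold change was 0.52 and the edgeR adjusted p 0.0185, and without replicate 2 they were 1.20 and 0.0426. The edgeR fit without a filter on low counts gave 0.0176. These were the 3 of 15 alternatives that called FN1. The other 12 did not, among them DESeq2 at an adjusted p of 0.125 and edgeR with the replicate block at 0.0855. Replicate 3 also had the highest LMO2 level, 874 CPM against 331 and 306 CPM, and whether that bears on FN1 was not tested.

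ZEB1 and ZEB2 had lower values in U87MG-LMO2. ZEB1 (6935; chr10:31318495-31529814, GRCh38, plus strand), the repressor of CDH1 and of epithelial polarity genes, had 91.5, 80.0 and 85.3 CPM in U87MG-control and 71.0, 70.2 and 73.8 CPM in U87MG-LMO2. No U87MG-LMO2 library reached the lowest control. Its fold change on the log2 scale was -0.26 ± 0.09 (SE) at an edgeR adjusted p of 0.131. After the GC correction it was -0.07. ZEB2 (9839; chr2:144364364-144524583, GRCh38, minus strand), which acts in the same way and in neural crest, had 83.9, 64.0 and 65.2 CPM against 58.2, 52.6 and 59.9 CPM. Its control replicate 1 stood above all other libraries. Its fold change on the log2 scale was -0.32 ± 0.13 (SE) at an edgeR adjusted p of 0.159. Neither gene passed the adjusted test under any of the 15 alternatives, in which the edgeR, DESeq2 or limma adjusted p ran from 0.0651 to 0.717 for ZEB1 and from 0.0901 to 0.392 for ZEB2. Each has an annotated antisense gene, and as the strand setting is not given in the sources used here, reads of the 2 strands cannot be told apart. ZEB1-AS1 had 27 to 45 counts per library and a log2 fold change of -0.28 (edgeR adjusted p 0.479). ZEB2-AS1 had 3 to 8 counts and was not tested.

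SNAI2, PRRX1 and VIM had overlapping groups. SNAI2 (6591), the Slug repressor of epithelial junction genes, had 154, 178 and 170.5 CPM in U87MG-control and 173, 176 and 216 CPM in U87MG-LMO2. Its log2 fold change was 0.17 (95% interval -0.10 to 0.44), with an edgeR adjusted p of 0.401. PRRX1 (5396; chr1:170662728-170739419, GRCh38, plus strand) had 48.7, 35.7 and 37.2 CPM against 43.0, 39.9 and 38.4 CPM. The highest and the lowest of its 6 values were both controls. Its log2 fold change was -0.0025 (95% interval -0.31 to 0.31), with an edgeR adjusted p of 0.993. These intervals exclude neither rises nor falls in U87MG-LMO2, with log2 limits of -0.10 and 0.44 for SNAI2 and of -0.31 and 0.31 for PRRX1.

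VIM (7431; chr10:17228259-17237593, GRCh38, plus strand) encodes vimentin, the intermediate filament of mesenchymal cells and of astrocytic tumors. It had 10905, 11068 and 10993 CPM in U87MG-control and 10859, 11389 and 13096 CPM in U87MG-LMO2. The controls lay within a narrow band, and U87MG-LMO2 replicate 3 was the highest library. The log2 fold change was 0.10 (95% interval -0.13 to 0.33), with an edgeR adjusted p of 0.563.

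A large part of the reads at this locus was assigned to the antisense gene VIM-AS1 (100507347; chr10:17214239-17229985, GRCh38, minus strand). Its exons share 641 bases with the exons of VIM, at chr10:17229345-17229985. VIM-AS1 had 71579, 107838 and 103617 counts in U87MG-control and 121911, 106090 and 176611 counts in U87MG-LMO2. As a share of the counts of both genes this was 36.2%, 41.5% and 41.5% against 40.5%, 38.7% and 44.7%. The groups overlapped, and the log2 fold change of VIM-AS1 was 0.21 (edgeR adjusted p 0.470). The 2 genes together took 1.73% to 2.21% of a library. Because strand cannot be read from these counts, the division between the 2 genes is uncertain. With their counts summed into 1 gene, an alternative chosen after seeing the data, the log2 fold change was 0.14 (edgeR adjusted p 0.492).

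**Figure D4:**
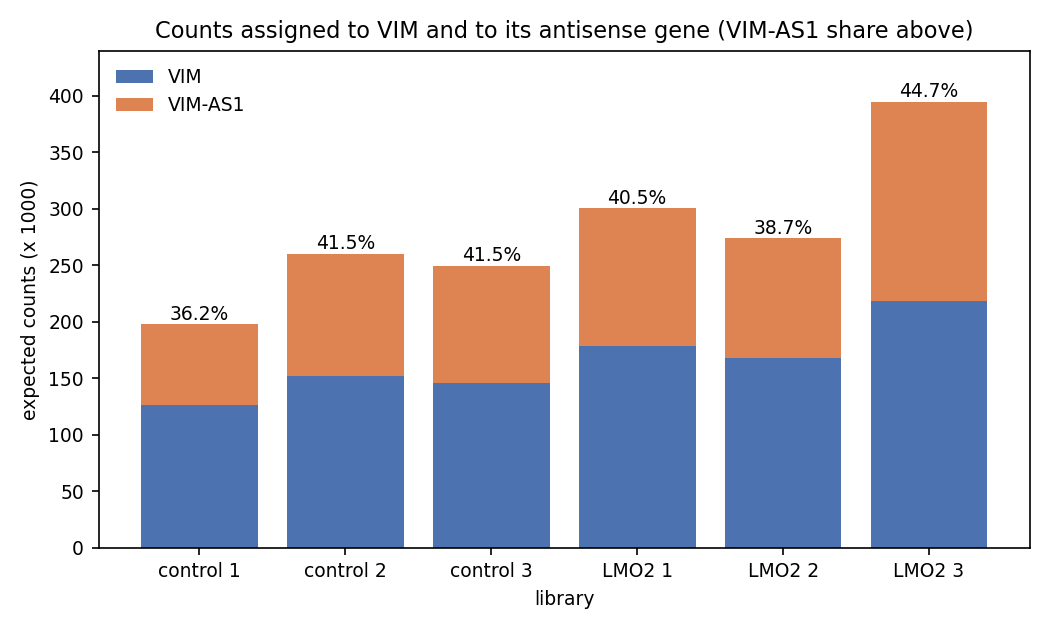
Expected counts (y axis, in units of 1000) assigned to VIM and VIM-AS1 in each of the 6 libraries (x axis), stacked, with the share of VIM-AS1 above each bar. The share ranged from 36.2% to 44.7% and overlapped between the groups.

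SNAI1 (6615; chr20:49982999-49988886, GRCh38, plus strand), the founding Snail repressor, did not pass the filter. It had 0, 4 and 2 counts in U87MG-control and 9, 5 and 8 counts in U87MG-LMO2. The 0 counts of the first control library allow up to 3 counts, so levels this low are close to the floor. In the edgeR fit without a filter its log2 fold change was 1.52 ± 0.72 (SE), with an adjusted p of 0.284. The groups did not overlap (0 to 0.291 CPM against 0.339 to 0.547 CPM), but the unadjusted edgeR p was 0.0522 and the difference did not pass.

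Ratios between genes of the same library set the TWIST and ZEB values side by side. TWIST1 over ZEB1, in FPKM, was 1.17, 1.34 and 1.12 in U87MG-control and 2.50, 2.11 and 2.51 in U87MG-LMO2. Every U87MG-LMO2 ratio exceeded every control ratio. This was fixed in advance, because in FPKM TWIST1 was higher and ZEB1 lower without overlap. SNAI2 over TWIST1 was 4.71 ± 0.485 (SD, n = 3) in the controls and 3.23 ± 0.341 (SD, n = 3) in U87MG-LMO2, again without overlap. The FPKM ranges of SNAI2 and TWIST1 fixed this order in advance too. TWIST1 over TWIST2 was 22.8 ± 4.10 (SD, n = 3) against 16.5 ± 0.751 (SD, n = 3). For each of these 3 ratios the two-sided exact permutation test gave a p of 0.1, the smallest that 3 against 3 libraries allow. After Benjamini-Hochberg adjustment over 5 ratios, the fifth being VIM-AS1 over VIM, it was 0.167. For TWIST1 over ZEB1 and SNAI2 over TWIST1 these p-values follow from the fixed order, so they add no evidence of a difference. The cadherin ratio, CDH2 over CDH1, was 44.6, 51.5 and 44.5 in U87MG-control and 47.2, 52.2 and 49.4 in U87MG-LMO2. Its groups overlapped, with an exact permutation p of 0.3 (0.375 adjusted over the 5 ratios). These ratios were chosen after the values were seen.

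The start regions of the genes are shown because TWIST, SNAI and ZEB proteins act through E-boxes and the study concerns STAT3, whose palindromic site can be written TTCNNNGAA. RefSeq windows of the 250 bases before a start (GRCh38.p14) were on hand for 7 of the 10 genes, TWIST2, ZEB1, ZEB2, PRRX1, VIM, CDH2 and FN1, in 14 windows. Shown are the windows of TWIST2, CDH2 and FN1, which had raised values, and the most upstream window of ZEB1, which had lower values. Capitals mark matches, searched on both strands, to the E-box of SNAI and ZEB proteins (CAGGTG), to an E-box bound by TWIST dimers (CAGATG), to the symmetric E-box of TWIST factors (CATATG) or to the STAT site (TTCNNNGAA). The windows lie at chr2:238847835-238848084 (plus strand) for TWIST2, chr18:28177131-28177380 (minus strand) for CDH2, chr2:215436069-215436318 (minus strand) for FN1 and chr10:31318167-31318416 (plus strand) for ZEB1.
TWIST2: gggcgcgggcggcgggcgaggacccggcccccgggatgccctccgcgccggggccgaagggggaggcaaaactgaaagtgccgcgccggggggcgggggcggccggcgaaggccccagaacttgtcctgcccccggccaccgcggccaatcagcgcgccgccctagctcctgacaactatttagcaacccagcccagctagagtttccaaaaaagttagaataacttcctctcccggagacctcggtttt
CDH2: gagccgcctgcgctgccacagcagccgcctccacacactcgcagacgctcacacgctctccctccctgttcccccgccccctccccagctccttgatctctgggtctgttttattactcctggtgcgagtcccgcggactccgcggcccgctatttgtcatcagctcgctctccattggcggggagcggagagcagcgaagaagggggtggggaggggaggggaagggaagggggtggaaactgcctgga
FN1: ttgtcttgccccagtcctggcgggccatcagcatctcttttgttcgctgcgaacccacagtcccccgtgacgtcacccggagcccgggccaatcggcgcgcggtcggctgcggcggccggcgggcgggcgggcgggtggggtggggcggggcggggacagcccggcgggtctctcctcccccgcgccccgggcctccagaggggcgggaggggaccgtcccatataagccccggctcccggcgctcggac
ZEB1: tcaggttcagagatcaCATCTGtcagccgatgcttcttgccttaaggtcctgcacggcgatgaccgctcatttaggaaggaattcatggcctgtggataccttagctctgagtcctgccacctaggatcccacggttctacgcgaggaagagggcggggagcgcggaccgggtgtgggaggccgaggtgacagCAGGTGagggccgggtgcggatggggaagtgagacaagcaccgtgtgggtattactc

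In this ZEB1 window CATCTG is CAGATG read on the other strand, CAGGTG is read on the plus strand, and the 2 matches do not overlap. The windows of TWIST2, CDH2 and FN1 shown above held none of the 4 motifs, and neither did the windows of ZEB2, PRRX1 and VIM. A second CDH2 window held CAGATG, and another ZEB1 window held CAGGTG. The remaining ZEB1 windows held none of the 4 motifs, and ZEB1 had more windows than any other of these genes. Of all 35116 windows of this length, 17.5% held CAGGTG, 12.2% held CAGATG, 2.63% held CATATG and 6.57% held TTCNNNGAA. GC content of the 14 windows ran from 42% in the second CDH2 window to 76.4% in the FN1 window, around a median of 58% for all windows.

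The length that the authors give for a gene in a library depends on the estimated mix of its transcripts. The edgeR and DESeq2 fold changes do not use it, whereas FPKM, on which limma was run, is scaled to it. CDH2 was longer in U87MG-LMO2, with 3255, 3279 and 3229 bases against 3203, 3136 and 3109 bases in U87MG-control. FN1, which is known for alternative splicing, was shorter, with 7709.6, 7699 and 7619.5 bases against 7724, 7751 and 7721 bases. Neither pair of groups overlapped. Of the 11058 tested genes whose length varied, 9.2% were longer and 7.53% were shorter without overlap. The lengths of TWIST1, TWIST2, ZEB1, ZEB2 and PRRX1 overlapped between the groups.

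Around these genes, 6 lists of companion genes were followed, with 134 distinct genes, of which 95 were tested. Of these, 17 rose (17.9%) and 7 fell (7.37%) at an edgeR adjusted p under 0.05, beside 4.72% and 2.75% of all tested genes, but the lists were chosen with earlier results known. The median log2 fold change of the 95 genes was 0.12, against -0.01 over all tested genes. Leaving out the U87MG-control libraries in turn left 3, 2 and 1 genes called higher and 1, 2 and 1 called lower. Without U87MG-LMO2 replicates 1, 2 and 3 the counts were 4, 11 and 21 higher and 1, 5 and 11 lower. Over all tested genes, 760 higher and 443 lower calls became 102 to 123 and 42 to 56 without a control library. Without U87MG-LMO2 replicates 1, 2 and 3 they became 177 and 48, 579 and 304, and 1306 and 1103. The calls of the companion genes were not equally stable. Among the 15 alternatives, LOXL2 was called in all, SOX9 in 14 and DSG2, FOXC2 and SPARC in 13 each, whereas CLDN4 and RUNX1 were called in 6 each. POSTN was called in 5 of the 14 that gave it a value, with log2 fold changes of 0.34 to 2.01.

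Epithelial genes were mostly low. Of 28 listed, 13 passed the filter, 1 rose and 1 fell, and the median log2 fold change was -0.19. CDH1 (999), the E-cadherin gene that SNAI and ZEB proteins repress, had 27.23 to 31.27 counts in the controls and 40.99 to 48.08 in U87MG-LMO2. In CPM, CDH1 had 2.11 to 2.34 against 2.46 to 2.99, higher without overlap, as were 17.5% of all tested genes. Its log2 fold change was 0.30 with an edgeR adjusted p of 0.391. EPCAM had 1 to 6 counts per library and was not tested. The desmosomal cadherin DSG2 fell, from 58.7, 40.1 and 43.8 CPM to 26.2, 26.8 and 24.5 CPM, with a log2 fold change of -0.88 at an edgeR adjusted p of 0.0157. The tight-junction gene CLDN4 rose from at most 1.06 CPM to between 1.70 and 2.34 CPM, with a log2 fold change of 1.10 at an edgeR adjusted p of 0.0422.

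Of 25 partners and stability regulators of the EMT factors, all tested, 2 rose and 2 fell, with a median log2 fold change of 0.04. The E-proteins with which TWIST factors pair did not pass: TCF3 had a log2 fold change of 0.02, TCF4 of 0.44 and TCF12 of 0.18, with edgeR adjusted p of 0.901, 0.112 and 0.275. TCF4 was higher in every U87MG-LMO2 library (24.5 to 34.3 CPM against 19.3 to 23.6 CPM). LOXL2, a lysyl oxidase that stabilises SNAI1, rose from 447 to 491 CPM in the controls to 775 to 832 CPM. Its log2 fold change was 0.78 with an edgeR adjusted p of 0.00448. AJUBA, a LIM-domain co-repressor of SNAI proteins, rose by 0.72 on the log2 scale (edgeR adjusted p 0.0291). PAK1, a kinase that phosphorylates SNAI1, had a log2 fold change of -0.62 (edgeR adjusted p 0.0199). FBXO11, a ubiquitin ligase subunit for SNAI proteins, had one of -0.44 (edgeR adjusted p 0.0418), which the GC correction took to an adjusted p of 0.443.

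Further EMT transcription factors moved both ways. Of 22 listed, 14 were tested, 5 rose and 2 fell, with a median log2 fold change of -0.02. The T-box factor TBX3 rose from 8.29 to 9.79 CPM in the controls to 15 to 27.2 CPM (log2 fold change 1.12, edgeR adjusted p 0.0290). The forkhead gene FOXC2, a mesenchyme factor, rose from 15.1 to 18.8 CPM to 29 to 42.0 CPM (log2 fold change 1.08, edgeR adjusted p 0.0107). FOXF1 rose by 1.07 and FOXC1, named after its value was seen, by 0.82 on the log2 scale. RUNX2, the osteogenic runt factor, rose by 0.51 on the log2 scale. SOX9, a factor of neural crest and glial progenitors, fell from 16.1 to 19.6 CPM to 5.09 to 8.58 CPM, with a log2 fold change of -1.47 at an edgeR adjusted p of 0.00918. HMGA2, a chromatin factor that induces SNAI1 and TWIST1 in other cells, fell from 432 to 541 CPM to 233 to 309 CPM, with a log2 fold change of -0.83 at an edgeR adjusted p of 0.0137.

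Of 22 further mesenchymal markers, 19 were tested, 5 rose and 1 fell, with a median log2 fold change of 0.62. The matrix genes SPARC, TNC and POSTN, the matrix protease MMP2 and the growth factor receptor PDGFRB rose. SPARC had 430 to 510 CPM in the controls and 736 to 865 CPM in U87MG-LMO2, a log2 fold change of 0.81 (edgeR adjusted p 0.00787). TNC went from 2141 to 2322 CPM to 3094 to 4179 CPM, a log2 fold change of 0.67 (edgeR adjusted p 0.0197). MMP2 and PDGFRB rose by 0.62 and 0.93 on the log2 scale. POSTN had a log2 fold change of 1.62 at under 2 CPM in every library. ACTA2, the smooth-muscle actin of myofibroblasts, went the other way, from 69.5 to 86.9 CPM to 35.9 to 58.7 CPM, with a log2 fold change of -0.81 at an edgeR adjusted p of 0.0390. The cadherin gene CDH11 is not analysed here.

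Among 23 family relatives of the 10 genes, 10 were tested, and 1 rose and 1 fell, with a median log2 fold change of 0.08. The bHLH gene MSC rose from 7.38 to 13.8 CPM to 18.3 to 27.0 CPM (log2 fold change 1.14, edgeR adjusted p 0.0359). The cadherin gene CDH18 fell from 11.6 to 14.8 CPM to 7.95 to 9.23 CPM (log2 fold change -0.67, edgeR adjusted p 0.0359). CDH13 had a log2 fold change of 0.12 with an edgeR adjusted p of 0.678. Of 16 regulators and markers of the mesenchymal glioma class, all tested, TGFBI, FOSL2 and RUNX1 rose, 0 fell and 13 were not called. Their median log2 fold change over all 16 was 0.27. TGFBI, a matrix protein induced by TGF-beta, went from 1159, 1964 and 1914 CPM to 4095, 5417 and 2902 CPM, a log2 fold change of 1.30 (edgeR adjusted p 0.0242). FOSL2 and RUNX1 rose by 0.57 and 0.42 on the log2 scale. After the GC correction the edgeR adjusted p was 0.0607 for CLDN4, 0.0518 for RUNX1, 0.0519 for MSC, 0.0508 for PDGFRB and 0.0617 for CDH18, so these 5 calls and that of FBXO11 were lost.

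**Figure D5:**
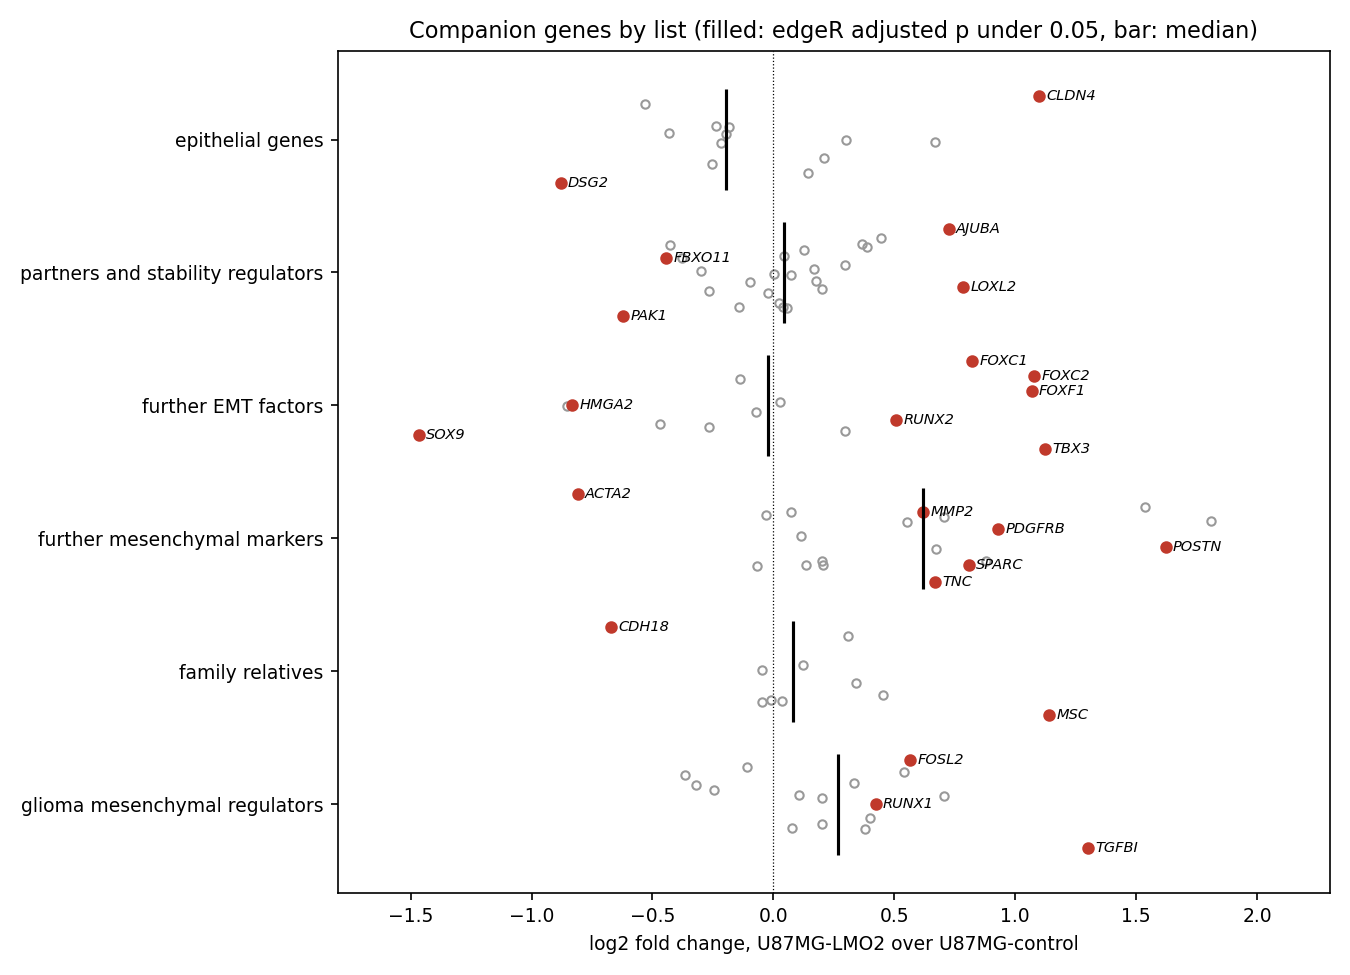
edgeR log2 fold changes (x axis) of the tested companion genes in 6 lists (y axis), with genes under an adjusted p of 0.05 filled and named and a bar at each list's median. Medians ran from -0.19 for the epithelial genes to 0.62 for the further mesenchymal markers.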

How the data were processed

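RNA-seq libraries of U87MG infected with control or LMO2 lentivirus (3 each, grouped by title and treatment in the labels) were compared. For each library the authors deposited expected counts, which are estimated reads per gene that are not normalised, the gene length and FPKM values, rounded to 2 decimals. Bowtie2, BWA and GRCh38.p12 are named in the submitters' processing notes, and the counting program and strand setting are not given in the sources used here. The authors' deposited comparison holds group means of FPKM, a log2 ratio and a probability, and only its means and gene symbols were used. For 132 genes the U87MG-LMO2 mean differed from the library tables by over 0.0005 FPKM, and these were left out. None of the 10 genes was among them, but GFAP and CLDN1 of the companion genes were. Apart from these, a gene without a line in a library was taken as 0 counts there. Counts of 9 of the 10 genes were whole in every library, and those of ZEB1 were not.

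Rounded counts were tested with edgeR 4.0.16 (filterByExpr, TMM, glmQLFit and glmQLFTest, two-sided, no block) in R 4.3.3, with Benjamini-Hochberg adjustment over 16092 genes and a threshold of 0.05. CPM used TMM-adjusted library sizes. Fold changes have an SE from the F statistic. The alternatives were upper-quartile scaling, no filter on counts, a minimum of 10 counts in each library, a block for the replicate number, each library left out in turn, DESeq2 1.42.0, and limma 3.58.1 on FPKM values as log2(FPKM + 1) or log2(FPKM + 0.1). A GC-content correction by lowess (span 0.3, GC known for 89.8% of tested genes from GENCODE v29 transcripts) and summing VIM with VIM-AS1 were added after seeing the data. The edgeR test was tried on simulated counts in which 200 genes were changed. It recovered 67.4% of 2-fold and 88.3% of 4-fold changes, and 7.06% of its calls were false. Depth was 11428432 to 17892955 counts, 0 counts allow up to 3, and this covers counting error only. Names matched a RefSeq table for 89.6% of genes, gene positions came from GENCODE v29 (GRCh38) and promoters from RefSeq (GRCh38.p14). All 10 genes were named, with LMO2, the antisense genes and, of each companion list, every called gene (with over 6 called, the 3 highest and 3 lowest), plus CDH1, EPCAM, TCF3, TCF4, TCF12, GFAP, CDH11 and CDH13. The 10 genes and all lists were chosen with earlier results of these data known.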

Additional observations from a re-analysis of the deposited data

How the results depend on the processing

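LMO2 was called higher in all 14 alternatives that gave it a value, with log2 fold changes of 7.67 to 10.0. Of the 10 genes, 2 were called higher, and this became 1 with the replicate number as a block (TWIST1, adjusted p 0.0444) and 0 to 4 when single libraries were left out. It was 0 without each U87MG-control library or U87MG-LMO2 replicate 1, and 4 (CDH2, FN1, TWIST1 and TWIST2) without U87MG-LMO2 replicate 3. The count of genes called lower was 0 throughout. TWIST1 was called in 11 of 15 alternatives, TWIST2 in 7, CDH2 in 4 and FN1 in 3, each with an unchanged direction. Of the companion genes, the 17 called higher became 10 with limma on log2(FPKM + 1), 9 on log2(FPKM + 0.1), 9 with the block and 1 to 21 with single libraries left out. The 7 called lower became 4 with the block and 1 to 11 with single libraries left out. Over all tested genes, the 760 higher and 443 lower calls became 387 and 189 with the block, 522 and 357 after the GC correction, and 521 and 369 with limma on log2(FPKM + 1). They were 102 to 123 higher and 42 to 56 lower without a control library, and 177 and 48, 579 and 304, and 1306 and 1103 without U87MG-LMO2 replicates 1, 2 and 3. The log2 fold change of PRRX1 changed sign from -0.0025 to 0.0032 with upper-quartile normalization, 0.0036 without a filter, 0.0027 with at least 10 counts, 0.0077 with the block, 0.095 after the GC correction, and between -0.082 and 0.15 with single libraries left out. The cause of these changes was not tested, except that fits without a library have fewer samples. Same-numbered libraries deviated from their group means with correlations of -0.12, 0 and -0.04 over 16092 genes, so the numbers were not taken to pair the libraries. SNAI1 and EPCAM had under 10 counts in every library, where a few reads decide a value.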

Other observations

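Some genes followed the 10 genes across libraries closely. For the 3 genes with the lowest edgeR p, the 3 genes with the most similar log2 CPM over the 6 libraries were taken from 11395 tested genes with a mean of at least 5 CPM. These correlations are descriptions, since with 6 libraries in 2 groups any gene that differs between the groups can score high. As the genes were picked for this likeness, patterns they share within a group follow from the choice. For TWIST1 they were PRR16 (Pearson r 0.990), MAP3K8, a kinase gene (0.989), and ZFHX3, a homeobox gene (0.989). MAP3K8 had 5.70, 5.74 and 4.44 CPM in U87MG-control and 10.1, 7.60 and 10.8 CPM in U87MG-LMO2, with the same low second U87MG-LMO2 library as TWIST1. For TWIST2 they were TMEM130 (Pearson r 0.998), the sorting receptor gene SORT1 (0.995) and SNX22 (0.988). SORT1 had 5.79, 4.0 and 3.31 CPM in the controls and 9.17, 9.16 and 10.1 CPM in U87MG-LMO2. For CDH2 they were the zinc transporter gene SLC30A7 (Pearson r 0.998), DNAJC1 (0.994) and ZFYVE27 (0.991). SLC30A7 had 27.3, 26.9 and 26.7 CPM against 31.1, 33.4 and 29.1 CPM, highest like CDH2 in U87MG-LMO2 replicate 2.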
